A study of Mus musculus with 12 samples.

Results

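The MAPK phosphatase, Sprouty and Spred genes encode proteins that switch off mitogen-activated protein kinase (MAPK) signaling. Considered here were the 10 mouse genes Dusp1, Dusp4, Dusp5, Dusp6, Dusp10, Spry1, Spry2, Spry4, Spred1 and Spred2, picked by gene symbol. They were measured by 11 probe sets, 1 for each gene and 2 for Spred2, of 21789 probe sets that stand for exactly 1 gene symbol and cover 19938 genes. Primary mouse hepatocytes (mouse HPC), the parenchymal cells of the liver, had been isolated with collagenase from male C57BL/6 mice and kept in serum-free culture on collagen. RNA was hybridized to 12 Affymetrix Mouse Gene 1.0 ST arrays, 3 of untreated cells (0 min) and 3 each of cells given 1 ng/mL recombinant human TGF-β1 for 20 min, 2 h and 4 h. The age of the mice, and whether the 3 replicates came from separate animals, are not given in the labels. With the reported settings, p-values measure the spread between these samples that is left after differences between replicates are taken out. Untreated cells were sampled at 0 min only, so the TGF-β1 treatment and the hours in culture cannot be told apart. The study set the transcriptional response to TGF-β1 side by side across several cell types, of which mouse HPC alone are used here, and these 10 genes are read here as feedback genes of the ERK and stress kinase pathways.

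Dual-specificity phosphatases of the MAPK class remove phosphate from both the threonine and the tyrosine of the activation loop of ERK, JNK or p38 kinases. Sprouty and Spred proteins act further upstream, between receptor tyrosine kinases and RAS or RAF. Many of these genes are themselves switched on by the kinases they restrain, which makes their transcripts a common readout of MAPK activity, and TGF-β can reach JNK and p38 through the kinase TAK1.

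The deposited values were log2 signals, with array medians between 6.82 and 6.93. Differences were tested with limma, a linear model with moderated variances, which held factors for time and for replicate. A gene was called at an adjusted p (Benjamini-Hochberg, over all 21789 probe sets) under 0.05. The 4 arrays of replicate 1 stood apart from the other 8 at every time point, on a first principal component that held 70.8% of the variance. In its own processing, the study reported a strong batch effect in the mouse HPC chips and adjusted them with the ComBat method. Whether the split of replicate 1 is that effect is not given, and no ComBat step was added here. Pmepa1, a transmembrane protein that binds SMADs, was a gene that the study found differentially expressed in all its mouse cells, mouse HPC included. It had a log2 signal of 10.52 at 4 h, against 7.74 at 0 min, a rise of 2.78 ± 0.23 (SE, limma, adjusted p = 0.000685). As the study used these same cells, this rise is a description and no independent check of the treatment.

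Promoter sequences are shown for Dusp10 and Dusp6, which had the smallest p-values of the 10 genes at 4 h, and for Dusp1 and Dusp5, which held the rarest of the motifs matched. Each runs 5′ to 3′ on the strand of the gene, in GRCm38.p6 as annotated by RefSeq, with 250 bases before and 50 after the annotated start. Capitals mark CCAAT boxes on either strand in Dusp10 (chr1:184034131-184034430, plus strand) and Dusp6 (chr10:99262981-99263280, plus strand). They mark the cAMP response element TGACGTCA in Dusp1 (chr17:26508423-26508722, minus strand) and CArG boxes, the sites of serum response factor, in Dusp5 (chr19:53528895-53529194, plus strand).
Dusp10: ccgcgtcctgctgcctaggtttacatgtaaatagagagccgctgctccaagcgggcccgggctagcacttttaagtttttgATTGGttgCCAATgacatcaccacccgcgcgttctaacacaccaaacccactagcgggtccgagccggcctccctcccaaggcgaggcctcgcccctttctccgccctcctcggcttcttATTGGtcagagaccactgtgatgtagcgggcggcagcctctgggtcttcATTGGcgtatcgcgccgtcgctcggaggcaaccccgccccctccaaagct
Dusp6: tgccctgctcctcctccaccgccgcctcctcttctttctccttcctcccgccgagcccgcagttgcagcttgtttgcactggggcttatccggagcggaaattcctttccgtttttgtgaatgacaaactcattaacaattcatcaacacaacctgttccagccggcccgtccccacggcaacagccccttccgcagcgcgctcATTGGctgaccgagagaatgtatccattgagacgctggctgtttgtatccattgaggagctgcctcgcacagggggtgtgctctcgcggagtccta
Dusp1: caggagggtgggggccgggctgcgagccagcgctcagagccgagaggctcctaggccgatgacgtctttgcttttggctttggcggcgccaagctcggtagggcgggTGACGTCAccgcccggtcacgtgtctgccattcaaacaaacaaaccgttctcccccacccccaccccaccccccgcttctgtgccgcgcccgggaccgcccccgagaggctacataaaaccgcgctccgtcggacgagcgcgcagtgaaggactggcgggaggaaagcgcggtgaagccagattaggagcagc
Dusp5: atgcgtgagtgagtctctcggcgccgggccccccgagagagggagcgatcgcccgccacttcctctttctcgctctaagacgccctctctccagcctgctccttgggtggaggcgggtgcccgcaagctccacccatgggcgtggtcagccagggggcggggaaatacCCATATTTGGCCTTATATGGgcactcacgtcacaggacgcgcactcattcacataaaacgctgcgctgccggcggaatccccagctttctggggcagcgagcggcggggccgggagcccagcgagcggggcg

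The reference table held a promoter for 8 of the 10 genes, all but Dusp4 and Spry4, and 13 motifs were searched on both strands. Dusp10 had 4 CCAAT boxes, at bases -169 to -165, -161 to -157, -49 to -45 and 1 to 5 from the start, and Dusp6 had 1, at -46 to -42. Spry1 and Spred2 also held CCAAT, which occurred in 37.4% of all 32851 promoters. The CRE of Dusp1, at -143 to -136, was a motif of 1.79% of promoters, and the CArG box, which Dusp5 held 2 times side by side at -82 to -73 and -72 to -63, was one of 1.63%. Its core TGACG (20.8% of promoters) was in Dusp1, Dusp5 and Spred2, and 2 of the 3 positions in Dusp1 lay within its full CRE. The SMAD motif GGCGCC (11.9%) was in Dusp1, Dusp5, Spred1 and Spred2, and another SMAD motif, CAGACA (21.0%), in Dusp1. The KLF motif GGGGCGGGG (11.4%) was in Dusp5 and Dusp10. None of the 8 windows held the AP-1 motif TGANTCA (7.81%), the EGR motif GCGNGGGCG (5.55%), the SMAD palindrome GTCTAGAC (0.213%), the ETS motif CCGGAAGT (3.89%), the NF-kB motif, GGGA and TTTCC parted by 1 base (0.411%), or the ATF4 motif TGATGNAA (3.97%). A match describes letters in the window and no binding was measured.

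Of the 10 genes, Dusp10 alone was called after TGF-β1, and only at 4 h, where it was higher. At 4 h, limma called 1 of the 11 probe sets, against 4.59% of all probe sets tested (1000, with 343 or 1.57% higher and 657 or 3.02% lower). At 20 min and at 2 h it called 0 of the 11 and 0 of all probe sets (0%). At an unadjusted p under 0.05 there were 2 of the 11 at 20 min (1843 of all), 0 at 2 h (1369) and 2 at 4 h (3711). Those at 20 min were Spred1 and the second probe set of Spred2, both lower, and those at 4 h were Dusp10, higher, and Dusp6, lower. The F test over the 3 later time points called 0 of the 11 and 1.4% of all. At an unadjusted p under 0.05 it held 4 of the 11 and 2632 of all 21789. The median log2 change of the 11 probe sets was -0.08 at 20 min, -0.03 at 2 h and -0.15 at 4 h, against 0, 0.01 and 0.02 over all probe sets. At each of these times 4 lay above 0 and 7 below, and the 3 comparisons share the untreated arrays.

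**Figure D1:**
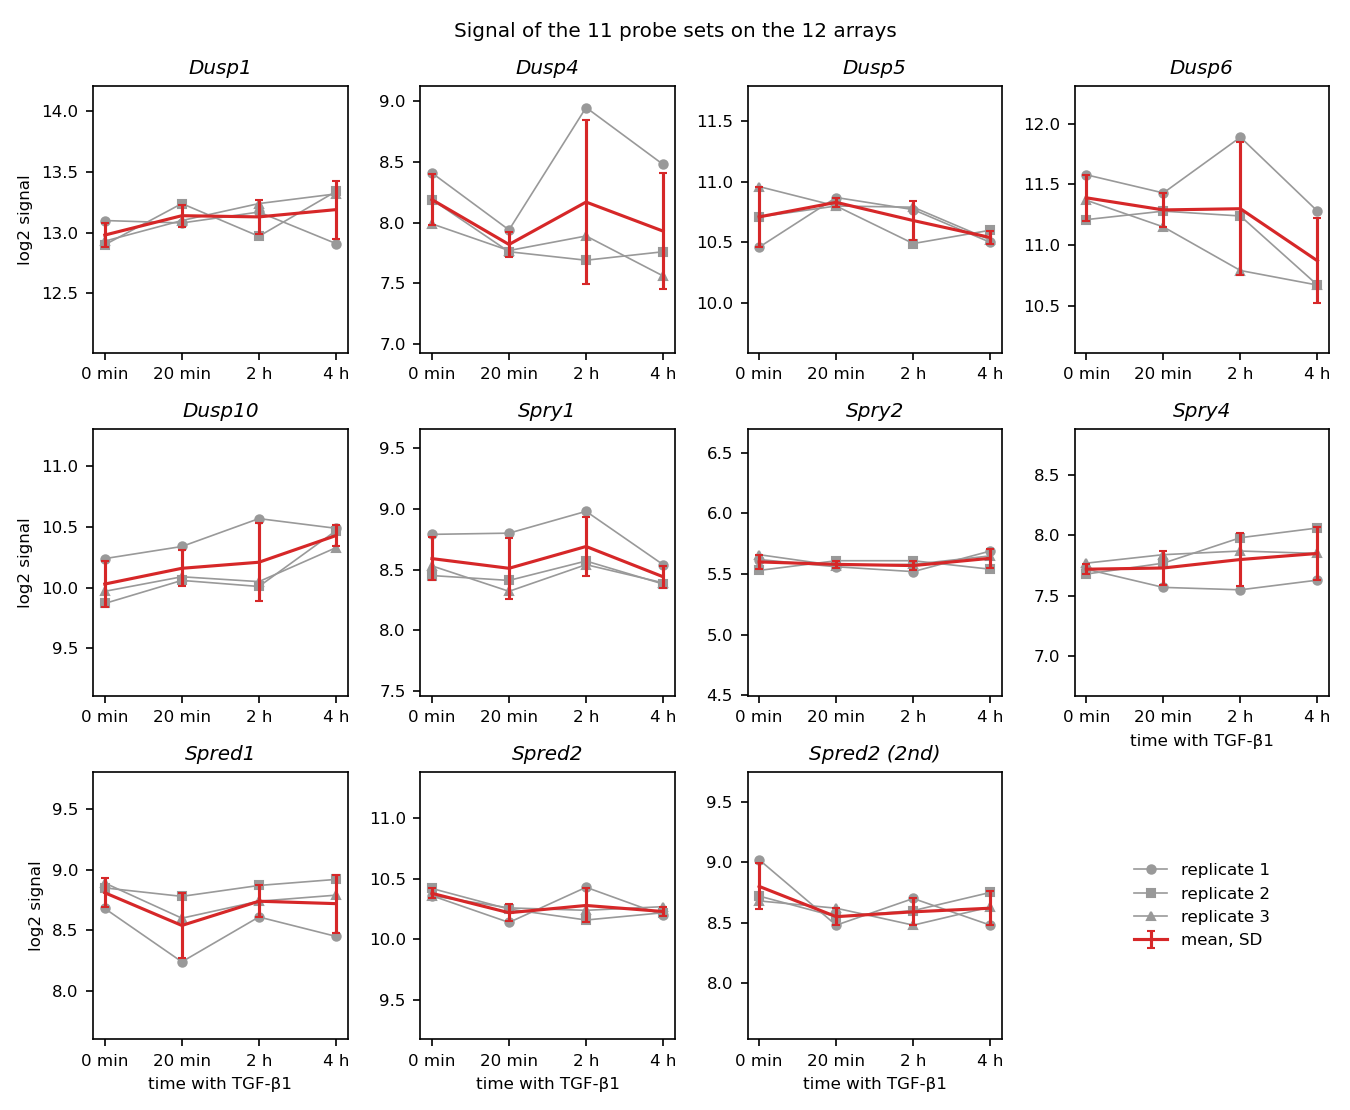
Log2 signal (y axis, the same span of 2.2 in each panel) of the 11 probe sets at 0 min, 20 min, 2 h and 4 h with TGF-β1 (x axis). Replicates 1, 2 and 3 are grey circles, squares and triangles, and the mean with its SD (n = 3) is in red; Dusp10 is highest at 4 h with a mean of 10.43, Dusp6 lowest at 4 h with 10.87, and replicate 1 of Dusp4 lies far above the others at 2 h.

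Dusp10 encodes a phosphatase that acts on JNK and p38 rather than on ERK, and its locus is chromosome 1, 184034381 to 184075636 (GRCm38.p6, as for all positions below). The log2 signal of Dusp10 in replicates 1, 2 and 3 was 10.24, 9.87 and 9.97 at 0 min, 10.34, 10.06 and 10.09 at 20 min, 10.57, 10.01 and 10.05 at 2 h, and 10.49, 10.47 and 10.33 at 4 h. All 3 arrays at 4 h lay above all 3 untreated arrays, while the 20 min and 2 h arrays overlapped with the untreated ones. Among all probe sets, 5.43% had 4 h arrays wholly above the untreated ones, and Dusp10 was the 1 member that did. The rise at 4 h was 0.40 ± 0.09 on the log2 scale (SE, 95% interval 0.21 to 0.60, limma, adjusted p = 0.0253), a fold of 1.32, with replicate differences of 0.26, 0.60 and 0.36. The differences were 0.14 ± 0.09 at 20 min (limma, adjusted p = 0.691) and 0.18 ± 0.09 at 2 h (0.828), positive in 3 of 3 replicates at both times. The means stood in the order of time, but no neighbours in that order differed in limma (lowest adjusted p = 0.467). Replicate 1 was the highest of the 3 at every time, as it also was for Dusp4, Dusp6 and Spry1 and for 15.1% of all probe sets.

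The call of Dusp10 held under 14 of 26 other ways of fitting the data, with changes of the same sign under all 26. With no replicate block it was lost (limma, adjusted p = 0.706), as it was with the replicate as a random effect (0.115), when only the untreated and 4 h arrays were fitted (0.0768), with all 35556 probe sets (0.0812) and at a threshold of 0.01. It was also lost without replicate 2 (0.209) or replicate 3 (0.227), without untreated replicate 1 (0.0704), 2 (0.102) or 3 (0.0627), and without the 4 h array of replicate 2 (0.124) or 3 (0.0996). Without replicate 1 the adjusted p was 0.0105.

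**Figure D2:**
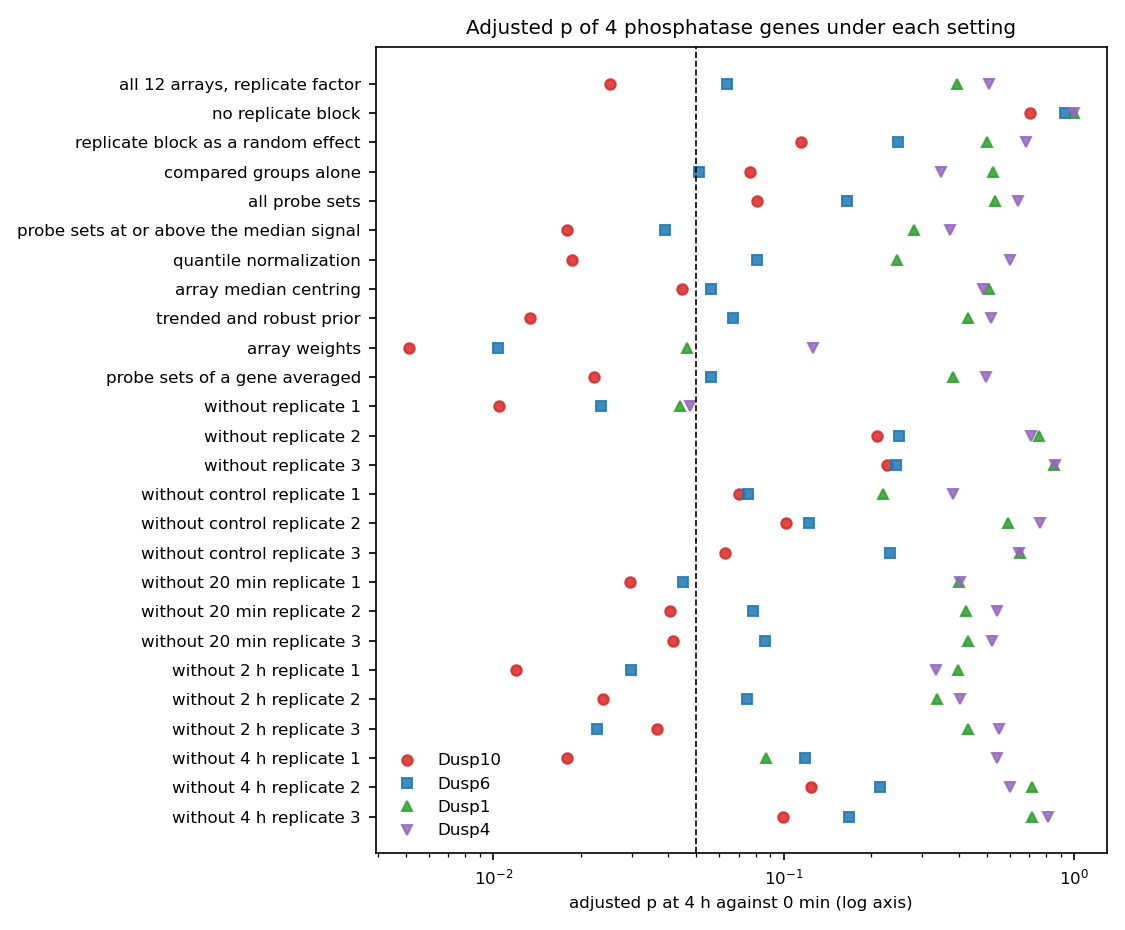
Adjusted p (x axis, log scale) of Dusp10, Dusp6, Dusp1 and Dusp4 at 4 h against 0 min under each way of fitting the data (rows), with a dashed line at 0.05. Dusp10 lies left of the line in the top row at 0.0253 and moves to 0.706 with no replicate block, and all 4 genes lie left of it without replicate 1.

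Dusp6, the cytoplasmic phosphatase of ERK and a widely used readout of ERK activity, had the largest decrease of the 10 genes at 4 h, but it did not pass the test. It lies on chromosome 10 from 99263231 to 99267489. Its log2 signal in replicates 1, 2 and 3 was 11.58, 11.21 and 11.37 at 0 min, 11.43, 11.28 and 11.15 at 20 min, 11.89, 11.24 and 10.79 at 2 h, and 11.28, 10.67 and 10.67 at 4 h. Each replicate was lower at 4 h than at 0 min, but replicate 1 at 4 h stood above replicate 2 at 0 min, so the groups overlapped. The difference at 4 h was -0.51 ± 0.14 on the log2 scale (SE, 95% interval -0.82 to -0.21, limma, adjusted p = 0.0637), a fold of 0.70, with replicate differences of -0.30, -0.54 and -0.70. At 20 min it was -0.10 ± 0.14 (limma, adjusted p = 0.869) and at 2 h -0.09 ± 0.14 (0.994), where the replicates ran both ways at 0.30, 0.02 and -0.58. Between 4 h and 2 h the difference was -0.43 (limma, adjusted p = 0.317), negative in 3 of 3 replicates. Dusp6 was called at 4 h under 6 of the 26 other fits, among them array weights (limma, adjusted p = 0.0104), probe sets at or above the median signal (0.0389), without replicate 1 (0.0235), and when 1 array was left out, either that of replicate 1 at 20 min (0.045) or 2 h (0.0298) or that of replicate 3 at 2 h (0.0227).

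The nuclear phosphatases Dusp1, Dusp4 and Dusp5 had no called difference between any of the 4 groups. Dusp1, which acts on p38 and JNK as well as ERK and is an immediate early gene, lies on chromosome 17 from 26505591 to 26508472. Its signal in replicates 1, 2 and 3 was 13.10, 12.90 and 12.93 at 0 min, 13.08, 13.24 and 13.10 at 20 min, 13.17, 12.97 and 13.24 at 2 h, and 12.91, 13.34 and 13.32 at 4 h. Replicates 2 and 3 were higher at 4 h and replicate 1 lower, by 0.43, 0.39 and -0.19, and the groups overlapped. The estimate at 4 h was 0.21 ± 0.12 (SE, 95% interval -0.04 to 0.47, limma, adjusted p = 0.394). It passed without replicate 1 (limma, adjusted p = 0.0439) and with array weights (0.0464). At 20 min Dusp1 differed from untreated cells by 0.16 ± 0.12 (limma, adjusted p = 0.718).

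Dusp4, on chromosome 8 from 34807610 to 34819894, is an ERK-induced phosphatase with a range of substrates close to that of Dusp1. Its signal in replicates 1, 2 and 3 was 8.41, 8.19 and 7.99 at 0 min, 7.94, 7.76 and 7.77 at 20 min, 8.95, 7.69 and 7.89 at 2 h, and 8.48, 7.76 and 7.56 at 4 h. All 3 arrays at 20 min lay below all untreated arrays, and at 2 h and 4 h replicate 1 was above its untreated array while replicates 2 and 3 were below theirs. The differences were -0.37 ± 0.17 at 20 min (limma, adjusted p = 0.6), -0.02 ± 0.17 at 2 h (0.999) and -0.26 ± 0.17 at 4 h (0.509). The SD at 2 h was 0.68, the widest of any member at any time (n = 3), with replicate 1 at 8.95. Without replicate 1 Dusp4 was called lower at 4 h (limma, adjusted p = 0.0477).

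Dusp5, which binds and inactivates ERK in the nucleus, lies on chromosome 19 from 53529145 to 53541809. Its signal in replicates 1, 2 and 3 was 10.46, 10.71 and 10.96 at 0 min, 10.87, 10.80 and 10.80 at 20 min, 10.77, 10.49 and 10.79 at 2 h, and 10.50, 10.60 and 10.52 at 4 h. The untreated arrays spread widest, and their range held all 3 at 4 h. The difference at 4 h from untreated cells was -0.17 ± 0.11 (SE, limma, adjusted p = 0.482). All 3 arrays at 4 h lay below all 3 at 20 min, as did those of 2.78% of all probe sets (4.21% lay wholly above). The difference was -0.29 ± 0.11 (limma, adjusted p = 0.365), in a comparison that called 0 of the 11 and 0.62% of all probe sets. At an unadjusted p under 0.05 it held 4 of the 11 and 2131 of all 21789.

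**Figure D3:**
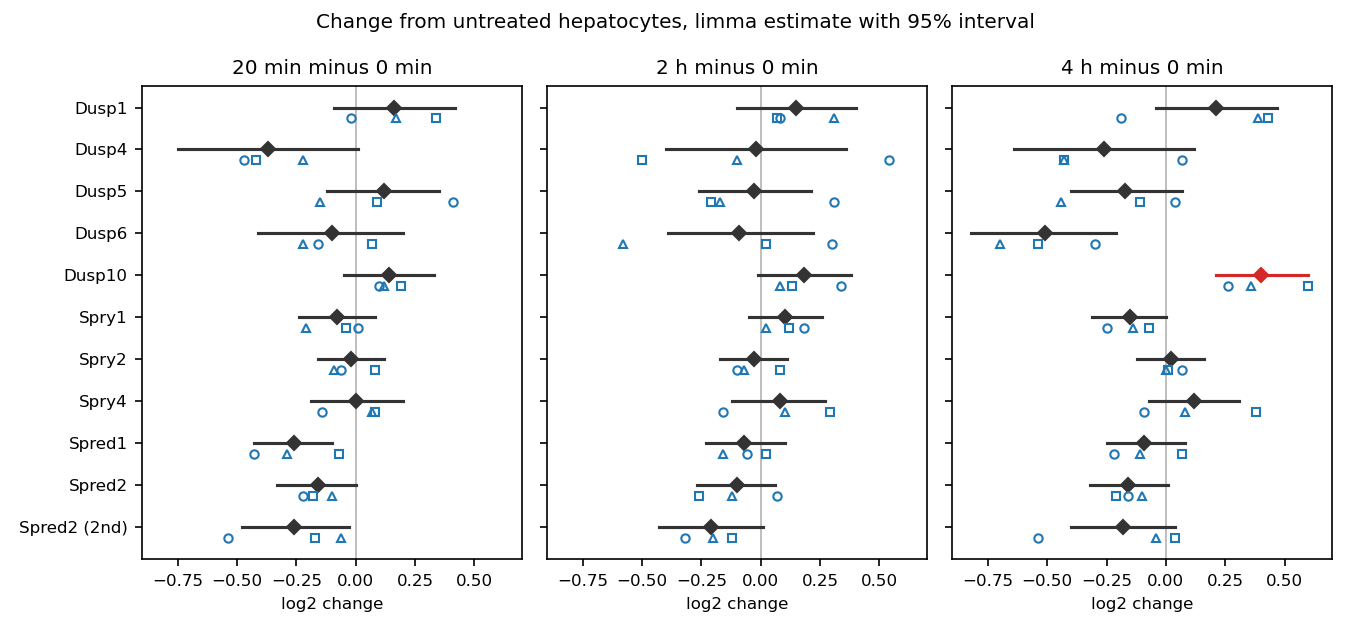
Log2 change (x axis) of each probe set (rows) at 20 min, 2 h and 4 h minus 0 min. Diamonds and lines are limma estimates with 95% intervals, open blue symbols are the 3 replicates (circle 1, square 2, triangle 3), and red marks the 1 called change, Dusp10 at 4 h with 0.40; the interval of Dusp6 at 4 h, -0.82 to -0.21, lies below 0 without a call.

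No Sprouty gene was called at any time. Spry1, which is induced by growth factors and dampens signaling from their receptors, lies on chromosome 3 from 37639947 to 37644599. Its signal in replicates 1, 2 and 3 was 8.79, 8.45 and 8.53 at 0 min, 8.80, 8.41 and 8.32 at 20 min, 8.98, 8.57 and 8.54 at 2 h, and 8.54, 8.38 and 8.39 at 4 h. The 3 arrays at 2 h were the highest of their replicates and, except for the 20 min array of replicate 3, those at 4 h the lowest. At 4 h Spry1 differed by -0.26 ± 0.07 from 2 h (SE, 95% interval -0.41 to -0.10, limma, adjusted p = 0.212). All 3 arrays at 4 h lay below all 3 at 2 h, as for 2.7% of all probe sets (2.64% lay wholly above). Its unadjusted p there was 0.00396, the smallest of the 11 probe sets in that comparison, where 0 of the 11 and 0.078% of all probe sets were called (0.0505% higher and 0.0275% lower). Against untreated cells it differed by -0.15 ± 0.07 at 4 h (limma, adjusted p = 0.31), negative in 3 of 3 replicates.

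Spry2 and Spry4 had 95% intervals that held 0 at every time. Spry2, on chromosome 14 from 105891947 to 105896819, had log2 signals between 5.52 and 5.69 on all 12 arrays, and 18.5% of the tested probe sets were dimmer. Its difference at 4 h was 0.02 ± 0.06, with a 95% interval of -0.12 to 0.16 (limma, adjusted p = 0.908). Spry4, on chromosome 18 from 38586247 to 38601347, was at 7.72 ± 0.04 at 0 min, 7.73 ± 0.14 at 20 min, 7.80 ± 0.22 at 2 h and 7.85 ± 0.22 at 4 h (SD, n = 3 each). Replicate 2 was higher at 4 h by 0.38 while replicates 1 and 3 differed by -0.09 and 0.08, and the estimate was 0.12 ± 0.09 (SE, limma, adjusted p = 0.545).

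The Spred genes lay lowest at 20 min, without a call. Spred1, which brings the RAS inactivator neurofibromin to the membrane, lies on chromosome 2 from 117121071 to 117182279. Its signal in replicates 1, 2 and 3 was 8.68, 8.85 and 8.89 at 0 min, 8.24, 8.78 and 8.60 at 20 min, 8.61, 8.87 and 8.74 at 2 h, and 8.45, 8.92 and 8.79 at 4 h. Each replicate had its lowest value at 20 min, but the arrays at 20 min overlapped with the untreated ones through replicate 2. The difference at 20 min was -0.26 ± 0.08 (SE, 95% interval -0.43 to -0.10), with replicate differences of -0.43, -0.07 and -0.29. Its unadjusted p of 0.00485 became 0.391 in limma after adjustment. Spred1 was then 0.20 ± 0.08 higher at 2 h than at 20 min (limma, adjusted p = 0.939) and 0.18 ± 0.08 higher at 4 h than at 20 min (0.462), in 3 of 3 replicates each. Replicate 1 was the lowest of the 3 at every time, as it was for 21.5% of all probe sets.

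Spred2, a relative of Spred1 that also acts between receptor and RAF, lies on chromosome 11 from 19924442 to 20024026 and had 2 probe sets. The first (10374455) gave 10.36, 10.42 and 10.36 in replicates 1, 2 and 3 at 0 min, 10.14, 10.25 and 10.26 at 20 min, 10.43, 10.16 and 10.24 at 2 h, and 10.20, 10.22 and 10.27 at 4 h. Its arrays at 20 min and those at 4 h lay wholly below the untreated ones, while at 2 h replicate 1 lay above. The differences were -0.16 ± 0.08 at 20 min (limma, adjusted p = 0.59), -0.10 ± 0.08 at 2 h (0.952) and -0.16 ± 0.08 at 4 h (0.325). The second (10374464) gave 9.02, 8.72 and 8.68 at 0 min, 8.48, 8.55 and 8.62 at 20 min, 8.70, 8.60 and 8.48 at 2 h, and 8.48, 8.75 and 8.63 at 4 h. It too lay wholly below the untreated arrays at 20 min, but it overlapped with them at 2 h and 4 h. Its differences were -0.26 ± 0.10 at 20 min (limma, adjusted p = 0.544), -0.21 ± 0.10 at 2 h (0.828) and -0.18 ± 0.10 at 4 h (0.42). At 20 min 0 of the 11 lay wholly above the untreated arrays, against 4.58% of all probe sets. The share of all probe sets with arrays wholly below the untreated ones was 4.91% at 20 min, where Dusp4 and both Spred2 probe sets made 3 of the 11, and 5.58% at 4 h, where the first Spred2 probe set was 1 of the 11. At 2 h 0 of the 11 lay wholly above or below, against 3.02% and 2.55% of all.

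The remaining MAPK phosphatases and their relatives had 1 of 10 genes called higher and 1 called lower at 4 h, against 1.57% and 3.02% of all probe sets tested. Dusp7, which like Dusp6 is a cytoplasmic ERK phosphatase, was at 10.56 at 4 h, against 10.24 at 0 min, a rise of 0.32 ± 0.07 (SE, limma, adjusted p = 0.0255) with replicate differences of 0.24, 0.50 and 0.23. Dusp8, which acts on JNK and p38, was at 9.90 at 4 h, against 10.25 at 0 min, and its main probe set fell by 0.36 ± 0.06 (limma, adjusted p = 0.0077), with replicate differences of -0.40, -0.34 and -0.33. The other Dusp8 probe set differed by -0.26 ± 0.09 (limma, adjusted p = 0.154). Not called at 4 h were the ERK phosphatase Dusp9 at 0.20, the JNK phosphatase Dusp16 at 0.14, Dusp14 at -0.19, the catalytically inactive Styx at 0.20, Dusp3 at 0.05, Dusp2 at -0.04, Dusp18 at -0.02 and Dusp22 at 0.01 (limma, adjusted p between 0.206 and 0.964). The median of the 10 was 0.03, against 0.02 over all probe sets. Without single arrays the call of Dusp7 was lost in 5 of 12 cases, namely without untreated replicate 2 or 3 or any of the 4 h arrays (limma, highest adjusted p = 0.126), and that of Dusp8 in 0 of 12 (0.0385). The Dusp8 call was lost without replicate 2 (0.108) or replicate 3 (0.144) and with the untreated and 4 h arrays alone (0.0587).

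Among 21 further inhibitors of the ERK pathway, each taken at its brightest probe set, 1 was lower at 4 h and 0 higher. Of all probe sets tested, 3.02% were lower and 1.57% higher. It was Rasa3, a GTPase-activating protein for RAS and RAP, at 7.86 at 4 h, against 8.39 at 0 min. Rasa3 fell by 0.54 ± 0.07 (SE, limma, adjusted p = 0.00282), by a like amount in each replicate (-0.54, -0.45 and -0.61), and the arrays did not overlap. A dimmer probe set of Ptpn2, a tyrosine phosphatase, was also called, with a difference of -0.36 ± 0.09 (limma, adjusted p = 0.0498), while its brightest differed by -0.23 ± 0.11 (0.326). Spry3 at -0.02, Spred3 at 0, the EGF receptor inhibitor Errfi1 at -0.03 and Il17rd, also known as Sef, at 0.02 did not pass (limma, adjusted p between 0.858 and 0.994). In the RAS to ERK cascade 1 of 20 genes measured of 26 listed was higher and 0 lower (1.57% and 3.02% of all probe sets). It was Ptpn11, the phosphatase SHP2 that promotes RAS activation, with a rise of 0.27 ± 0.06 (limma, adjusted p = 0.033), and this call was lost in 9 of 12 fits that left out 1 array (highest adjusted p = 0.14). The 3 arrays whose loss kept it were those of replicate 1 at 20 min and of replicates 1 and 2 at 2 h.

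In the JNK and p38 cascade 1 of 23 genes measured of 24 listed was higher at 4 h and 1 lower (1.57% and 3.02% of all probe sets). Mapk14, which encodes the kinase p38α, was at 10.92 at 4 h, against 10.41 at 0 min, and rose by 0.51 ± 0.07 (SE, limma, adjusted p = 0.0041), with replicate differences of 0.50, 0.59 and 0.44. Map2k6, a kinase that activates p38, was dim, at 6.40 at 4 h, against 6.73 at 0 min, where the median signal of tested probe sets was 7.23. It fell by 0.34 ± 0.07 (limma, adjusted p = 0.0182), and its call was lost without untreated replicate 1 or 2 or the 4 h array of replicate 1 or 2 (highest adjusted p = 0.0822).

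Of 37 ERK-responsive transcripts measured of 40 listed, 2 were higher and 4 lower at 4 h (1.57% and 3.02% of all probe sets). The median change over the list was -0.04. The transcription factor genes Egr1 and Jun fell by 0.51 ± 0.08 (SE, limma, adjusted p = 0.00624) and 0.46 ± 0.07 (0.00451), each in 3 of 3 replicates and without overlap of the arrays. Zfp36, which encodes an mRNA decay factor, fell by 0.65 ± 0.11 (limma, adjusted p = 0.00697) and Myc by 0.29 ± 0.07 (0.0348). Plaur, the urokinase receptor gene, rose by 0.66 ± 0.12 (limma, adjusted p = 0.0107) and the transcription factor gene Klf4 by 0.52 ± 0.11 (0.0245). Klf4 was dim, at 7.53 at 4 h, against 7.01 at 0 min, where the median signal of tested probe sets was 7.23. Fos differed by -0.34, Phlda1 by -0.22, Ier2 by -0.19, Ier3 by -0.02, Etv4 by 0.14, Etv5 by -0.06 and Ccnd1 by 0.33 without passing (limma, adjusted p between 0.0713 and 0.969). At 20 min and 2 h 0 genes of any of these 5 lists were called in limma. Leaving out 1 array ended the call of Plaur in 2 of 12 fits (replicate 2 at 4 h or 0 min, highest adjusted p = 0.0577) and that of Klf4 in 4 (replicate 2 or 3 at 4 h or 0 min, 0.122). That of Myc ended in 7 (any untreated array, replicate 2 or 3 at 4 h, replicate 2 at 20 min or replicate 3 at 2 h, 0.162).

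The 12 calls in these lists depended on how the replicates were treated. Without a replicate block all 12 were lost (limma, adjusted p between 0.0612 and 0.996), as they were without replicate 3 (0.0925 to 0.316), and all but that of Rasa3 (0.0475) without replicate 2 (0.0539 to 0.247). With the replicate as a random effect, Dusp8 (limma, adjusted p = 0.00944), Rasa3 (0.0184), Egr1 (0.0247) and Map2k6 (0.0472) stayed called. Mapk14 (0.0945), Jun (0.0577), Zfp36 (0.0878), Plaur (0.262), Klf4 (0.0625), Dusp7 (0.312), Ptpn11 (0.34) and Myc (0.203) did not. With the untreated and 4 h arrays alone, Dusp7 (limma, adjusted p = 0.115), Map2k6 (0.109), Klf4 (0.0852), Ptpn11 (0.14), Myc (0.104) and Dusp8 (0.0587) were lost. Without replicate 1, Map2k6 (limma, adjusted p = 0.0954) and Ptpn11 (0.115) were lost.

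**Figure D4:**
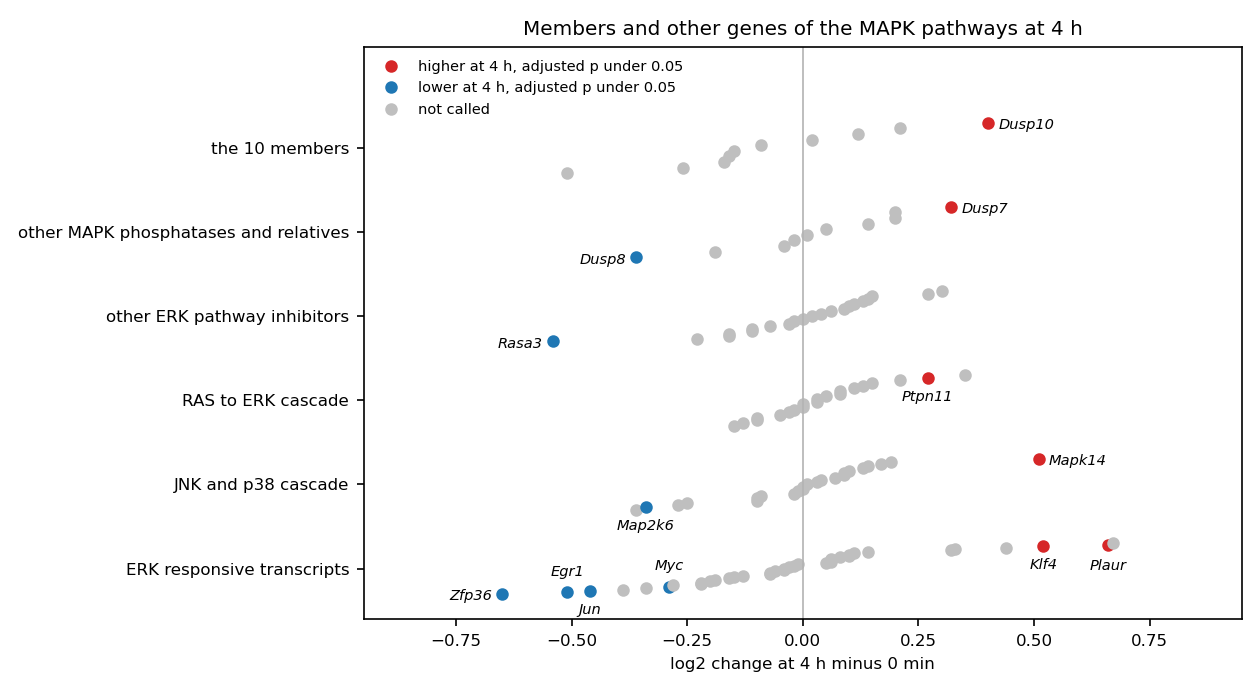
Log2 change at 4 h minus 0 min (x axis) of the 10 genes and of 5 lists of other genes of the MAPK pathways (rows), 1 point per gene at its brightest probe set, spread vertically by rank. Red and blue points are called higher and lower at 4 h in limma, grey points are not called; Rasa3 at -0.54 and Mapk14 at 0.51 lie apart from the rest of their lists.

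The genes whose 9 differences from the untreated array of the same replicate lay nearest to those of a member were sought among 10895 probe sets at or above the median signal, for the 3 members with the largest F. For Dusp10 they were the SMAD corepressor gene Ski, the glycosylation enzyme gene Mgat1 and Pxdc1, at root mean square differences of 0.107, 0.108 and 0.112 on the log2 scale, against a size of 0.288 for Dusp10 itself. These 3 genes were higher at 4 h by 0.43, 0.45 and 0.46 (limma, adjusted p = 0.00572, 0.00879 and 0.0033). Since they were picked for likeness to Dusp10, these p-values are a description. For Dusp6 the nearest was the chemokine gene Cxcl1 at 0.112, followed by Vaultrc5 at 0.157 and 1810010H24Rik at 0.161, against a size of 0.393, and these 3 were not called at 4 h (limma, adjusted p between 0.1 and 0.16). For Spry1 they were the transcription factor gene Atf1 at 0.063, Mideas at 0.0659 and the sterol enzyme gene Nsdhl at 0.0671, against a size of only 0.141, also without a call at 4 h (0.159 to 0.489). Likeness over 12 arrays that share replicates is a description.

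Some markers of other liver cells, mainly of macrophages, also moved at 4 h. Of 9 Kupffer cell and macrophage markers measured, 4 fell (Adgre1, Csf1r, C1qb and C1qc) and 0 rose, against 3.02% and 1.57% of all probe sets. The summed linear signal of all 9 was 4040 to 4940 at 4 h, against 5210 to 6120 at 0 min. Cd68, the brightest of the 9 with 11.98 at 0 min, differed by -0.24 ± 0.11 at 4 h without a call (limma, adjusted p = 0.267). In addition 1 of 8 stellate cell and fibroblast markers (Dcn) and 1 of 6 endothelial markers (Lyve1) also fell, with 0 called of 5 lymphocyte markers. Of 4 cholangiocyte markers 0 were called, but their summed signal was 1730 to 2240 at 4 h, against 775 to 1730 at 0 min. Sox9 in that list differed by 1.19 ± 0.34 (SE, limma, adjusted p = 0.0751), the largest difference of the markers, positive in 3 of 3 replicates. Of 7 hepatocyte markers 1 fell (Tat), and the sum was 94400 to 96700 at 4 h, against 101000 to 103000 at 0 min, with log2 signals of 10.35 or more on all arrays. Fewer cells of a type and less RNA per cell cannot be told apart in these bulk samples. The part of these shifts in the values of Dusp10, Dusp6 and the ERK-responsive transcripts was not tested.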

How the data were processed

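RNA of 12 mouse HPC cultures was measured on Affymetrix Mouse Gene 1.0 ST arrays. For the deposited log2 values the authors ran RMA through Affymetrix Power Tools, of versions not given in the sources used here. RMA corrects background, normalizes quantiles and summarizes probe sets, which can compress differences of dim probe sets. Values ran from 3.84 to 15.2 with 0 missing. Arrays give no counts, and their number limits the precision. Probe sets were named through the platform's probe table: 21789 of 35556 had 1 symbol and were tested, 1621 had several and 12146 were not listed.

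All fits used limma 3.58.1 in R 4.3.3 with time and replicate number as factors (6 residual and 5.39 prior degrees of freedom). The replicate numbers of the labels were taken as pairs, because deviations of same-numbered arrays correlated at 0.555 to 0.881. Those of differently numbered arrays of different time points correlated at -0.812 to 0.722, so the ranges overlapped. The study's time course method, betr, was replaced by the moderated F test. Calls were made at an adjusted p under 0.05 (Benjamini-Hochberg). The scripts were checked on simulated data. Listed genes are given by their brightest probe set, members by every probe set.

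The members, lists and named genes were chosen with earlier results of these data known. Named were all members, the remaining MAPK phosphatases and their relatives, Spry3, Spred3, Errfi1 and Il17rd. Also named were up to 4 called genes with the smallest p per other list, 8 set ERK-responsive genes, Pmepa1 and the 3 nearest genes of 3 members. The 13 motifs were chosen with the member promoters in view, the CCAAT box after the sequences had been read, and the promoters shown were picked after the matches were known. Alternatives were 11 other settings and 15 fits without a replicate or an array. A time point of 1 h is not used here. The study excluded a chip of low quality at 1 h and left that time out of its time course analysis.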

Additional observations from a re-analysis of the deposited data

How the results depend on the processing

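With the reported settings 1 of the 11 probe sets was called at 4 h and 0 at 20 min, at 2 h and over the time course. At 4 h the count was 0 with no replicate block, with the replicate block as a random effect (consensus correlation 0.393), with the compared groups alone, with all probe sets and at an adjusted p under 0.01. It was 2 after a filter at the median signal (Dusp6 and Dusp10) and 3 with array weights (Dusp1, Dusp6 and Dusp10), where limma called 10% and 8.26% of all probe sets. Leaving out a replicate or an array gave 0 to 4 at 4 h, with 4 without replicate 1 (Dusp1, Dusp4, Dusp6 and Dusp10, where 4.52% of all probe sets were called, against 4.59% with the reported settings) and 0 without replicate 2 (0.464%) or 3 (0.147%). Over the time course array weights called 2 (Dusp6 and Dusp10) and 4.96% of all probe sets, against 1.4%, and all leave-out fits called 0. At 20 min and 2 h the count was 0 under all 26 alternatives. The time course test could not be made with the compared groups alone, and Spry2 and the second Spred2 probe set have fewer values because a filter or averaging removed them. Small estimates changed sign: Dusp4 at 2 h was 0.02 after quantile normalization and Spry4 at 20 min -0.02 after array median centring. Leave-out fits that crossed 0 spanned, at 20 min, -0.03 to 0.25 for Dusp5, -0.19 to 0.03 for Dusp6, -0.08 to 0.01 for Spry2 and -0.09 to 0.10 for Spry4. At 2 h they spanned -0.30 to 0.22 for Dusp4, -0.19 to 0.09 for Dusp5, -0.28 to 0.16 for Dusp6, -0.09 to 0 for Spry2 and -0.03 to 0.20 for Spry4, and at 4 h -0.02 to 0.07 for Spry2 and -0.01 to 0.23 for Spry4. The cause was not tested. The 12 calls among the other pathway genes at 4 h were kept by 8 of 26 alternatives (Ptpn11) to 24 of 26 (Rasa3). Those of Myc and Dusp7 were kept by 11 and 13 of 26.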
